A study of Mus musculus with 4 samples.

Results

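The 10 genes described here encode the perilipins that coat cytosolic lipid droplets (Plin2, Plin3, Plin4 and Plin5), the lipases that break down stored triglyceride step by step (Pnpla2, Lipe and Mgll), the activator of the first lipase (Abhd5) and its inhibitors (G0s2 and Hilpda). They were taken by symbol from a table of 56393 mouse genes, and 7 of the 10 were among the 14187 genes whose mean count over the libraries reached 50. RNA was sequenced from MPC, a conditionally immortalised mouse podocyte line, after 7 days of differentiation. Podocytes are the epithelial cells that cover the capillaries of the kidney filter. All cells carried a short hairpin construct, directed at Jaml (sh-JAML), a gene for a junction adhesion protein, or at no named target (the control, sh-NC). Cultures labelled HG (sh-NC/HG and sh-JAML/HG) were given D-glucose (40 mmol/L in the medium) for 24 h, while sh-NC and sh-JAML received no added glucose. The labels name no osmotic control for the added glucose, and they do not say whether a hairpin line was 1 clone. Each of the 4 groups was a single library, so differences between libraries are described and only an additive model over all 4 libraries was tested.

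A lipid droplet is a core of triglyceride and sterol ester under a phospholipid monolayer that perilipins coat. Adipose triglyceride lipase, the product of Pnpla2, removes the first fatty acid, hormone-sensitive lipase (Lipe) the next and monoglyceride lipase (Mgll) the last. The protein CGI-58 (Abhd5) activates the first lipase, the small proteins G0S2 and HILPDA inhibit it, and perilipins control access to the droplet. Podocytes are known to gather lipid droplets in diabetic kidney disease, and PLIN2 is the usual marker of droplets in cells other than adipocytes.

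Deposited counts summed to between 79330461 and 94341975 per library, and 4 units of the table were taken as 1 sequenced fragment. Jaml, the target of the hairpin, was listed at 0 in each of the 4 libraries, so its reduction could not be checked. Of 12 podocyte markers 8 passed the count minimum. The slit diaphragm marker Nphs1 did not, and Tcf21 was at 0 in each library. Adipocyte markers were near 0, with 0 of 9 past the count minimum and a summed level between 0.561 and 1.52 CPM (the count corrected for library size, scaled by TMM, the trimmed mean of M-values). Of 8 macrophage markers 3 passed, with a summed level between 57.8 and 68.2 CPM that was mostly Csf1r. Lyz2, which also passed, had 170, 282, 162 and 5 units in sh-NC, sh-NC/HG, sh-JAML and sh-JAML/HG. In the same order Csf1r had 4941, 4665, 4485 and 4759 units. Cd68, which passed as well, had 248, 359, 240 and 262 units, so neither was lowest in sh-JAML/HG. Of the markers that did not pass, Ptprc, Adgre1 and Tyrobp were at 0 in sh-JAML/HG, and had 16 to 25, 16 to 48 and 3 to 21 units in the other libraries. Fcgr3 had 13 units in sh-NC/HG and 0 in the other libraries, and Itgam had at most 4 units. Of 12 tubule markers 5 passed, and their summed level was lowest in sh-JAML/HG (946 CPM), against 1347 to 1625 CPM in the other libraries. Of those that passed, Cdh16 had 561, 735, 623 and 437 CPM in sh-NC, sh-NC/HG, sh-JAML and sh-JAML/HG. In that order Lrp2 had 299, 420, 273 and 232 CPM, and Aqp1 had 293, 293, 280 and 94.96 CPM. Pax8 had 192, 173, 178 and 178 CPM and Cubn 1.90, 2.78, 2.36 and 2.87 CPM, so neither was lowest in sh-JAML/HG. Of the tubule markers that did not pass, Umod and Slc34a1 were at 0 in each library. The sh-NC/HG library stood apart. Its 13 mitochondrially encoded mRNAs, which were listed as a sign of RNA quality, summed to 13402 CPM against 19795 to 21222 CPM in the other libraries. All 13 were lower than in sh-NC (median log2 ratio -0.74), but unevenly, from -0.05 for mt-Co1 to -1.56 for mt-Nd2. The part of these markers and of that library's state in the results that follow was not tested. In RNA from a whole culture, fewer cells of a type and less RNA per cell cannot be told apart.

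The 10 genes spanned a wide range of levels. Levels per length are TMM-scaled CPM per kb of exon, and libraries are given in the order sh-NC, sh-NC/HG, sh-JAML and sh-JAML/HG unless named. Plin2 led at 86.3, 48.2, 73.6 and 78.3 CPM per kb, above 92.1% to 96.2% of the measured genes of each library. Plin3 followed at 33.0, 29.8, 33.5 and 37.0 CPM per kb, and Pnpla2 lay close to it at 29.2, 23.4, 29.2 and 27.2 CPM per kb. Plin2 was above Plin3 and Plin3 above Pnpla2 in each library, with little between the latter (29.8 CPM per kb at the lowest for Plin3 and 29.2 at the highest for Pnpla2).

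Abhd5, the activator of the first lipase, stood at 10.5, 7.64, 9.85 and 10.5 CPM per kb. Hilpda, an inhibitor of the same enzyme, stood at 7.13, 6.67, 6.87 and 8.63 CPM per kb, and its range overlapped that of Abhd5. Lipe was lower, at 2.63, 2.91, 3.17 and 2.25 CPM per kb. Plin4 had the lowest measured level at 1.94, 0.498, 1.61 and 2.30 CPM per kb, and its range overlapped that of Lipe at its upper end. In sh-JAML/HG, and in no other library, Plin4 was above Lipe per length, but only at 2.30 against 2.25 CPM per kb (1125 and 1122 units). No interval was computed for that narrow gap, so their order there is not settled.

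The other 3 genes were at or near the counting limit. G0s2, the second inhibitor of adipose triglyceride lipase, was at 0 in all 4 libraries, which allows up to 0.151, 0.128, 0.150 and 0.142 CPM (3 fragments per library). Plin5, the perilipin of heart and other oxidative tissues, had 6, 2, 4 and 10 units, under the limit of 12 units (3 fragments) in each library. Mgll, the lipase of the last step, had 12, 22, 20 and 4 units, so only sh-NC/HG and sh-JAML were above the limit and no ratio is given for it. Other enzymes that cleave monoglycerides were measured: Abhd6 stood between 26.3 and 32.9 CPM and Abhd12 between 57.9 and 69.9 CPM. The adipocyte coat gene Plin1 and the droplet fusion genes Cidea, Cideb and Cidec did not pass the count minimum either, and their summed level was at most 0.396 CPM.

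**Figure D1:**
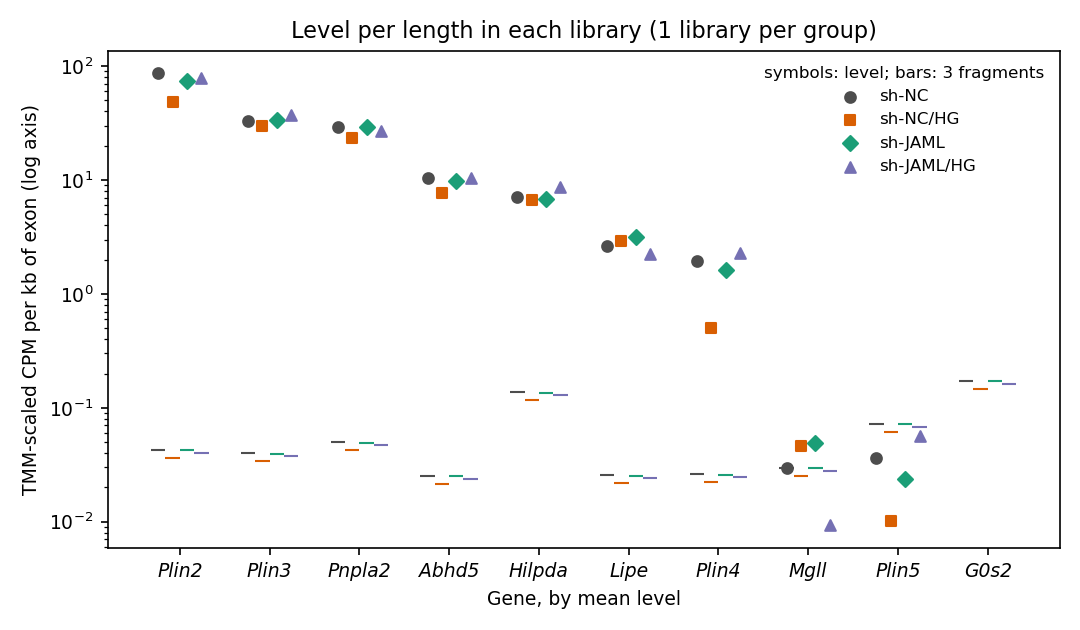
Level per length (TMM-scaled CPM per kb of exon, log axis) of the 10 genes in each library, with a symbol for each library and a short bar at the level that 3 fragments would give. Plin4 is the gene with 1 library far below the others (0.498 CPM per kb in sh-NC/HG), and Plin5 and Mgll lie around or under their bars. G0s2, at 0 in each library, has no symbol on the log axis.

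Plin4 encodes a perilipin built largely of a repeated stretch that folds into an amphipathic helix on the droplet surface. The gene lies on chromosome 17 from 56100591 to 56109803 on the minus strand (mm10; GENCODE release M21 annotation), beside Plin5 (56111601 to 56117596) and on the same strand as Plin3 (56277476 to 56292873). The repeat is also visible in the transcript, and 3 successive units of 99 bases from its coding sequence are shown because reads that fall in them can match the same gene in more than 1 place. They lie at chr17:56106304-56106402, chr17:56106205-56106303 and chr17:56106106-56106204, and capitals mark bases that differ from the unit before.
Plin4 unit 1: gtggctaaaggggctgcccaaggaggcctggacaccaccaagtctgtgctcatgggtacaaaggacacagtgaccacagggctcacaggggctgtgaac
Plin4 unit 2: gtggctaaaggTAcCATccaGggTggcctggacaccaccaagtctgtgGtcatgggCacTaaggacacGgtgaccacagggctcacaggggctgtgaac
Plin4 unit 3: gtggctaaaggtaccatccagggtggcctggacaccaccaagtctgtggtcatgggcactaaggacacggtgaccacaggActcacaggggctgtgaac

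The second unit differed from the first at 11 bases, and the third from the second at 1 base. At an identity of at least 75% between neighbouring units, such repeats covered 42.7% of the 5756 bases of the longest Plin4 transcript. Of its windows of 50 bases, 17.4% occurred more than once within the transcript and 0% in a transcript of another gene. The longest transcripts of the other 9 genes had no window repeated within them. How reads that match Plin4 at several places were counted is not given in the sources used here, and their part in its counts was not tested.

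Plin4 had 889, 269, 748 and 1125 units, or 11.2, 2.88, 9.32 and 13.3 CPM. The sh-NC/HG library was low and the other 3 lay within 1.43-fold of each other. Ranges in parentheses are exact 95% intervals for counting error alone, and leave out the variation between cultures. Plin4 was 3.87-fold lower with glucose (sh-NC/HG against sh-NC) under the control hairpin (2.95 to 5.20). It was 1.43-fold higher with glucose (sh-JAML/HG against sh-JAML) under the Jaml hairpin (1.18 to 1.72). Between hairpins it was 1.20-fold lower with the Jaml hairpin at basal glucose (0.982 to 1.46), where the interval held 1, and 4.61-fold higher with it in HG (3.54 to 6.15). The first and the last of these ratios share the sh-NC/HG library. From the highest to the lowest library Plin4 spanned 4.62-fold, and without sh-NC/HG 1.43-fold. Of the 14187 measured genes 0.656% had a lower log2 ratio than Plin4 for glucose under the control hairpin.

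Plin2, the droplet coat of most cell types, lies on chromosome 4 from 86648386 to 86670060 on the minus strand. It had 24096, 15831, 20750 and 23262 units, or 303, 169, 259 and 275 CPM, so that sh-NC/HG was the lowest library here too and sh-NC the highest. Plin2 was 1.79-fold lower with glucose under the control hairpin (1.72 to 1.86) and 1.06-fold higher with glucose under the Jaml hairpin (1.02 to 1.10). The Jaml hairpin library was 1.17-fold lower than its control at basal glucose (1.13 to 1.22) and 1.62-fold higher in HG (1.56 to 1.69). Of the 14187 measured genes 4.72% had a lower log2 ratio than Plin2 for glucose under the control hairpin. From highest to lowest Plin2 spanned 1.79-fold over the 4 libraries and 1.17-fold without sh-NC/HG. Of the 50-base windows of its longest transcript 4.89% also occur in Gm12551, so the assignment of reads there is uncertain.

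Plin3, a perilipin that moves between the cytosol and new droplets, lies on chromosome 17 and had 125, 113, 127 and 140 CPM. The lowest and the highest of these were the HG libraries. It was 1.11-fold lower with glucose under the control hairpin (1.05 to 1.17) and 1.10-fold higher with glucose under the Jaml hairpin (1.05 to 1.16). Between hairpins Plin3 was 1.02-fold higher with the Jaml hairpin at basal glucose (0.960 to 1.07) and 1.24-fold higher with the Jaml hairpin in HG (1.18 to 1.31).

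Ratios between 2 genes of the same library do not depend on the scaling between libraries. Plin2 to Plin3, per length, was 2.61, 1.62, 2.20 and 2.12. That ratio was 1.62-fold lower with glucose under the control hairpin (1.51 to 1.73) and 1.04-fold lower with glucose under the Jaml hairpin (0.971 to 1.11). Plin4 to Plin3 was 3.52-fold lower with glucose under the control hairpin (2.65 to 4.72) and 3.74-fold higher with the Jaml hairpin in HG (2.84 to 4.98). Within the perilipins the shift in sh-NC/HG was thus unequal, being smallest in Plin3. Summed per length, perilipin mRNA was 121, 78.5, 109 and 118 CPM per kb, and Plin2 made up 71.2%, 61.4%, 67.7% and 66.6% of it. Plin3 took 27.2%, 38.0%, 30.8% and 31.4%.

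**Figure D2:**
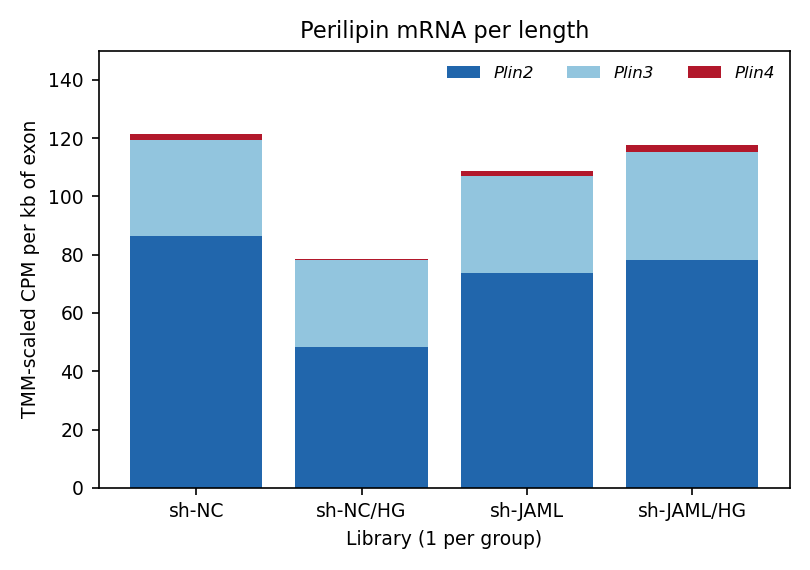
Stacked level per length (TMM-scaled CPM per kb of exon) of Plin2, Plin3 and Plin4 in each library. The sum is lowest in sh-NC/HG (78.5 CPM per kb), where the Plin2 segment is short and the Plin4 segment barely visible.

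Pnpla2, on chromosome 7 from 141455198 to 141460743, encodes the lipase of the first step. It stood at 88.3, 70.8, 88.0 and 82.0 CPM, with both HG libraries below both libraries without added glucose. It was 1.25-fold lower with glucose under the control hairpin (1.17 to 1.33) and its ratio with glucose under the Jaml hairpin was 0.932 (0.871 to 0.996). It is the only one of the 7 measured genes that was lower with glucose under both hairpins. Pnpla2 was 1.16-fold higher with the Jaml hairpin in HG (1.08 to 1.24), while the ratio of the hairpins at basal glucose was 0.998 (0.933 to 1.07).

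Abhd5, on chromosome 9 from 122351608 to 122381524, stood at 62.5, 45.5, 58.7 and 62.5 CPM, lowest in sh-NC/HG. It was 1.38-fold lower with glucose under the control hairpin (1.27 to 1.49), 1.06-fold higher with glucose under the Jaml hairpin (0.984 to 1.15) and 1.37-fold higher with the Jaml hairpin in HG (1.27 to 1.49). It shares 16.0% of its exon bases with A730085K08Rik, which had at most 12 units. Abhd5 to Pnpla2, the activator to its enzyme, was 0.359, 0.326, 0.338 and 0.386 per length. With glucose this ratio was 1.10-fold lower under the control hairpin (0.990 to 1.23) and 1.14-fold higher under the Jaml hairpin (1.03 to 1.27).

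Hilpda, on chromosome 6 from 29272488 to 29275446, is a target of hypoxia-inducible factor, and its product inhibits the same lipase. Its counts were 625, 688, 608 and 805 units, or 7.86, 7.36, 7.58 and 9.52 CPM, with sh-JAML/HG the highest library. Hilpda was 1.07-fold lower with glucose under the control hairpin (0.853 to 1.33), an interval that held 1, and 1.26-fold higher with glucose under the Jaml hairpin (1.01 to 1.56). In HG it was 1.29-fold higher with the Jaml hairpin (1.05 to 1.59). The ratio of Hilpda to Pnpla2 per length was 0.244 and 0.285 without and with glucose under the control hairpin, and 0.236 and 0.318 under the Jaml hairpin. That ratio was 1.17-fold higher with glucose under the control hairpin (0.926 to 1.48) and 1.35-fold higher with glucose under the Jaml hairpin (1.07 to 1.69).

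Lipe, on chromosome 7 from 25379527 to 25398710, encodes hormone-sensitive lipase, which protein kinase A activates. It had 1228, 1601, 1498 and 1122 units, or 15.5, 17.1, 18.7 and 13.3 CPM, and was lowest in sh-JAML/HG. It was 1.11-fold higher with glucose under the control hairpin (0.952 to 1.29) and 1.41-fold lower with glucose under the Jaml hairpin (1.20 to 1.65). At basal glucose it was 1.21-fold higher with the Jaml hairpin (1.03 to 1.41), and in HG 1.29-fold lower (1.11 to 1.51). Its side was thus opposite to that of Plin2, Plin4, Abhd5 and Hilpda in each of the 4 pairs, although several of these intervals held 1. Lipe to Pnpla2 was 1.38-fold higher with glucose under the control hairpin (1.17 to 1.63) and 1.31-fold lower with glucose under the Jaml hairpin (1.10 to 1.56). Lipe shares 15.6% of its exon bases with 4732471J01Rik, which had 153, 245, 168 and 175 units, so a part of the counts of either gene could belong to the other.

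**Figure D3:**
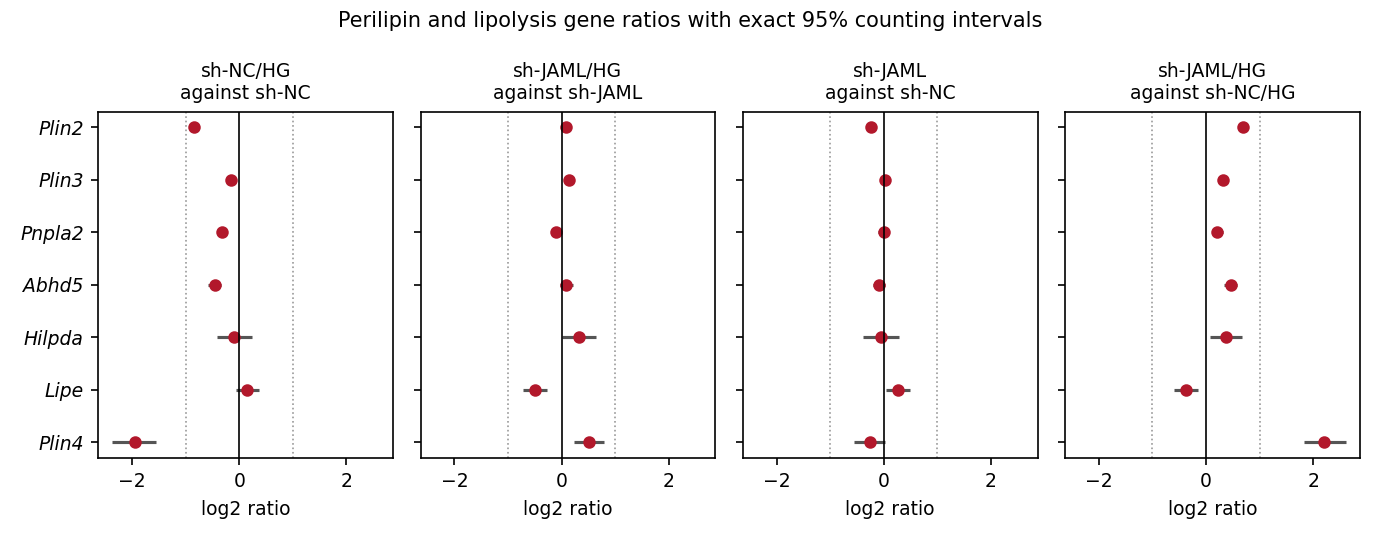
Log2 ratios of the 7 measured genes in 4 pairs of libraries, with exact 95% counting intervals as bars and dotted lines at 2-fold. Plin4 is the only point past a dotted line, at -1.95 for sh-NC/HG against sh-NC and 2.20 for sh-JAML/HG against sh-NC/HG.

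Over the 7 measured genes, sh-NC/HG against sh-NC had 6 lower and 1 higher, with a median log2 ratio of -0.32 beside -0.00 over all 14187 genes. At 2-fold, 0 of 7 were higher and 1 of 7 lower (Plin4), where 4.62% of all genes were higher and 3.30% lower. In sh-JAML/HG against sh-JAML, 5 were higher and 2 lower with a median of 0.09, and none of the 7 passed 2-fold beside 1.32% of all genes higher and 1.56% lower. In sh-JAML against sh-NC, 2 were higher and 5 lower with a median of -0.05, and again none passed 2-fold beside 1.31% higher and 1.40% lower. In sh-JAML/HG against sh-NC/HG, 6 were higher and 1 lower with a median of 0.37, and 1 of 7 was 2-fold higher (Plin4) and 0 lower, beside 2.84% and 4.76% of all genes. With 7 genes, 1 past 2-fold is not set apart from these shares. The quartiles of all genes were -0.23 and 0.23 for glucose under the control hairpin, and -0.13 and 0.12 for glucose under the Jaml hairpin. The pairs that share a library are not independent of each other.

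The additive model asked which differences of glucose were common to both hairpins, and which differences of hairpin were common to both glucose conditions. None of the 7 genes was called by edgeR's quasi-likelihood test for glucose (0.00705% of all genes, 1 gene) or for hairpin (0% of all genes), and none had an unadjusted p under 0.05. For glucose, Plin4 had a log2 difference of -0.71 (SE 0.69, Benjamini-Hochberg adjusted p = 0.930 by edgeR) and was lower in 1 of 2 pairs. Plin2 had -0.38 (SE 0.26, adjusted p = 0.930 by edgeR), also lower in 1 of 2 pairs, and Pnpla2 -0.21 (SE 0.12, adjusted p = 0.930 by edgeR), lower in 2 of 2 pairs. For hairpin, Plin4 had a log2 difference of 0.96 (SE 0.70, adjusted p = 0.935 by edgeR), and was higher in 1 of 2 pairs. With DESeq2, which called 0.374% of all genes for glucose (53 genes) and 0.338% for hairpin (48 genes), and with limma-voom, which called 0% for either, none of the 7 was called or had an unadjusted p under 0.05. Over all genes, an unadjusted p under 0.05 was reached by 403 genes for glucose and 412 for hairpin in edgeR, by 549 and 594 in DESeq2 and by 445 and 465 in limma-voom. This model has 1 residual degree of freedom, which holds the disagreement between hairpins, and that was wide for Plin4 and Plin2. Each fit draws a gene's error towards that of other genes, so the SEs and p-values above rest partly on those genes.

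The bases before the start of Plin2 and of Plin4 are shown because both were lowest in sh-NC/HG by the largest folds among the 7 measured genes. They come from the 250 bases before the RefSeq transcription start (GRCm38.p6), without those that GENCODE places in the first exon (1 base for Plin2 and 21 for Plin4). The Plin2 window is chr4:86670061-86670309 and the Plin4 window chr17:56109804-56110032, both on the minus strand and written 5′ to 3′ along the gene, with motif matches in capitals.
Plin2 promoter: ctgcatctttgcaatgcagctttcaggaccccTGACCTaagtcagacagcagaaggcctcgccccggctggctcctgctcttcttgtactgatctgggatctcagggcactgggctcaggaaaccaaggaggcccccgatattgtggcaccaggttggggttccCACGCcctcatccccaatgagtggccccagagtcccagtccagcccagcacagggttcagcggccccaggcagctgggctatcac
Plin4 promoter: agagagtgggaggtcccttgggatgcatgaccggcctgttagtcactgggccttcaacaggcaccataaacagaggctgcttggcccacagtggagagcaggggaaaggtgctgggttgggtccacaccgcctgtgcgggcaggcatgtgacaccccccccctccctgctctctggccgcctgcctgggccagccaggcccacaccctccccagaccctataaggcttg

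Motifs were searched on both strands in the 250 bases before each of 32851 RefSeq starts, of which 14 belong to the 10 genes. The element AGGTCA, which PPAR and RXR receptors bind, lay on the opposite strand of Plin2, 218 to 213 bases before the start, and was also found for Abhd5 and Plin5. It occurred in 14.0% of all windows. Its direct repeat, which is 2 copies with 1 base between, was in 0 of the 14 windows and in 0.0335% of all. The hypoxia response core in its form GCGTG lay on the opposite strand of Plin2, 86 to 82 bases before the start, and was in 9 of the 14 windows beside 28.2% of all. These windows belong to Abhd5, G0s2, Hilpda, Lipe, Mgll, Plin2 and Plin5. Mgll and Plin5 each have more than 1 of them, so the windows are not separate genes. The other form of that core, ACGTG, was in 4 of the 14 windows (Hilpda, Lipe and Mgll) beside 16.6% of all. The FOXO motif TGTTTAC was in windows of Lipe and Mgll (3.17% of all windows) and so was the E-box CACGTG (6.02%), which contains an ACGTG. The TATA box TATAAA was in 0 of the 14 and 12.4% of all. None of these motifs was in the Plin4 window, which says only that these letters are not in it.

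The genes around this pathway were taken by lists. Of 14 droplet assembly genes 13 were measured, and for glucose under the control hairpin 11 were lower and 2 higher. Their median log2 ratio was -0.30, and 1 gene was at least 2-fold lower, beside 3.30% of all genes. That gene was Ldah, which encodes a droplet-associated hydrolase, at 38.0, 12.9, 13.8 and 15.5 CPM. It was 2.95-fold lower with glucose under the control hairpin (2.58 to 3.39) and 2.75-fold lower with the Jaml hairpin at basal glucose (2.40 to 3.17). The sh-NC library alone was high, unlike the pattern of Plin4. With glucose under the Jaml hairpin the assembly genes had a median of 0.10, with 9 higher and 4 lower. The other lipid hydrolases (10 of 16 measured) had a median of -0.14 for glucose under the control hairpin and -0.03 for glucose under the Jaml hairpin, and none passed 2-fold in any of the 4 pairs. Fatty acid and glycerol handling genes (9 of 14 measured) had medians of -0.24 and -0.13, again with none past 2-fold in any pair. Over all genes, between 1.31% and 4.76% passed 2-fold in a given direction of a given pair.

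Hormones control lipolysis through cyclic AMP and protein kinase A, and insulin opposes them through the phosphodiesterase PDE3B. Of the 12 measured signalling genes 2 were at least 2-fold higher with glucose under the control hairpin, beside 4.62% of all genes. Pde3b stood at 5.32, 20.9, 4.69 and 3.97 CPM, so that sh-NC/HG alone was high, where Plin4 was low. It was 3.92-fold higher with glucose under the control hairpin (3.17 to 4.88), and 5.24-fold lower with the Jaml hairpin in HG (4.16 to 6.71). The second was Prkacb, a catalytic subunit gene of protein kinase A, which stood at 89.0, 201, 187 and 90.7 CPM. Its glucose ratios had opposite sides, 2.25-fold higher under the control hairpin (2.13 to 2.38) and 2.06-fold lower under the Jaml hairpin (1.95 to 2.18). The median of the list was 0.09 and 0.05 in these pairs.

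Perilipin genes and Angptl4 are known targets of the fatty acid receptors PPAR. Pparg had at most 4 units in a library and Ppara did not pass the count minimum, while Ppard stood at 28.0, 52.7, 30.5 and 29.9 CPM. Among the 10 measured PPAR regulators and targets the median log2 ratio was -0.35 for glucose under the control hairpin, with 4 higher and 6 lower. Angptl4, a secreted inhibitor of lipoprotein lipase, was 2.21-fold lower there (1.56 to 3.22) and 1.87-fold lower with glucose under the Jaml hairpin (1.35 to 2.63), the same side in both. Plin2 and Plin4 were both lower with glucose under the control hairpin and both higher with glucose under the Jaml hairpin. Between hairpins the list had medians of 0.15 without and 0.32 with added glucose. The fasting-responsive kinase gene Pdk4 was 2.26-fold higher with the Jaml hairpin in HG (1.37 to 3.8), and the carnitine transferase gene Cpt1b 2.36-fold lower with the Jaml hairpin at basal glucose (1.33 to 4.35).

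Hilpda lay away from the median of the list of hypoxia-inducible factor and its targets in the pairs given here. Of the 12 measured genes of that list 10 were higher and 2 lower with glucose under the control hairpin. Their median log2 ratio was 0.67, and 2 were at least 2-fold higher, beside 4.62% of all genes. Hilpda had -0.10 in that pair, with a counting interval that held 1. Epas1, which encodes HIF-2 alpha, had few counts, at 57, 313, 43 and 61 units. It was 4.61-fold higher with glucose under the control hairpin (2.66 to 9.06), and in HG 4.58-fold lower with the Jaml hairpin (2.68 to 8.80). Ldha, the other gene past 2-fold, stood at 334, 849, 294 and 301 CPM. It was 2.54-fold higher with glucose under the control hairpin (2.47 to 2.62), and in HG 2.82-fold lower with the Jaml hairpin (2.74 to 2.90). Under the Jaml hairpin the glucose median was -0.05, with 5 higher and 7 lower, while Hilpda had 0.33. In sh-JAML/HG against sh-NC/HG the list had 11 of 12 lower and a median of -0.59, and Hilpda had 0.37. There 3 of the 12 were at least 2-fold lower, beside 4.76% of all genes. The list was not uniform, since Vegfa lay on the side of Hilpda in 2 of these pairs. Vegfa had -0.40 for glucose under the control hairpin and 0.29 for sh-JAML/HG against sh-NC/HG.

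**Figure D4:**
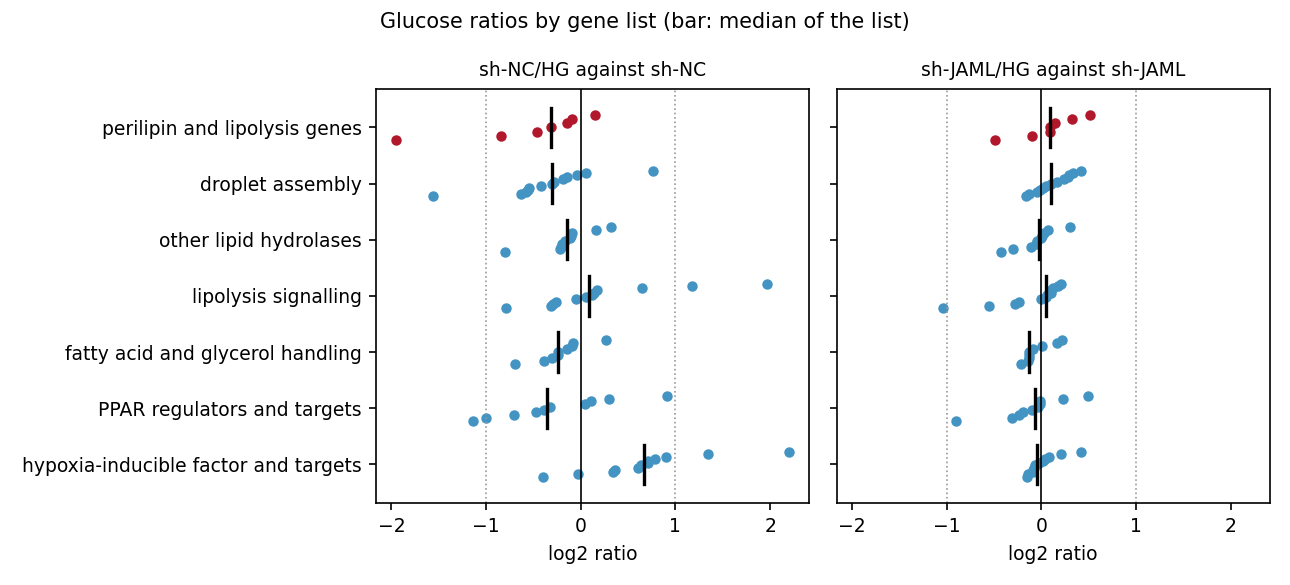
Log2 ratios of the 7 measured perilipin and lipolysis genes (top row) and of the measured genes of 6 related lists, for glucose under the control hairpin (left) and under the Jaml hairpin (right), with a bar at each median and dotted lines at 2-fold. The hypoxia list has its median at 0.67 on the left and -0.05 on the right, and the perilipin and lipolysis genes at -0.32 and 0.09.

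Plin4 was the only one of the 10 genes whose mean count reached 100 with a span of at least 2-fold, so its pattern was compared with those of 12977 genes by the Euclidean distance between log2 levels centred over the 4 libraries. The nearest was Gm43254 (distance 0.233), at 4.15, 1.01, 3.81 and 4.36 CPM. Pygo2, whose product is a nuclear coactivator of Wnt signalling, was the next (distance 0.334), at 135, 31.3, 136 and 148 CPM. The third was AC107792.3 (distance 0.336), at 2.39, 0.578, 1.47 and 2.67 CPM. Each of these genes was lowest in sh-NC/HG, and 4 libraries are too few to set such a likeness apart from other genes with that library low.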

How the data were processed

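The authors deposited 1 table of estimated counts, by Ensembl gene and library, with no scaling between libraries. Software named is CASAVA 1.8 and TopHat2 2.0.6, on build mm10, per the submitters' processing notes. The tool that counted reads, like its annotation, is not given in the sources used here. Libraries followed a TruSeq RNA protocol, per the labels' protocols. Columns for control cells do not name a hairpin, and their names were matched to the sh-NC groups. The series' design text speaks of 4 treated and 4 untreated samples, and 4 libraries were analysed here.

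Low values lay at multiples of 4 between 1.51 and 2.10 times as often as at neighbouring even values, so 4 units were taken as 1 fragment. Intervals (Clopper-Pearson, given the total of both counts) and the limit of 3 fragments use fragments, and ratios use the values as deposited, which are whole numbers. Reads without molecular identifiers are not independent molecules, so both cover counting error only. Symbols came from GENCODE M21, which matched 55394 of 56393 genes.

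Counts were scaled by TMM over all 4 libraries (R 4.3.3, edgeR 4.0.16), with a prior count of 1 and a minimum mean count of 50. The additive model of hairpin and glucose was fitted across all 14187 genes with edgeR's quasi-likelihood test (Benjamini-Hochberg at 0.05), limma 3.58.1 and DESeq2 1.42.0. The counting intervals and edgeR's test for glucose were tried on simulated data, while the hairpin term, DESeq2 and limma were not. The simulated glucose effect was the same under both hairpins, so disagreement between hairpins was not simulated. Other values used Python 3.11.15, numpy 2.4.6, pandas 2.3.3, scipy 1.17.1 and matplotlib 3.10.9. The genes and lists were chosen with earlier results of these data known. Named were all 10 genes, Jaml, the highest and lowest gene of each related list where past 2-fold, and the 3 genes most like a gene spanning at least 2-fold. Other genes were named after their values were seen, as marker, mitochondrial, receptor, kinase, hypoxia or monoglyceride lipase genes of the lists. Protein sequences were not used here.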

Additional observations from a re-analysis of the deposited data

Results flagged for a closer look

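For 3 genes the glucose ratio lay on opposite sides of 1 under the control and the Jaml hairpin, with counting intervals that left out 1 on both sides. The log2 ratio in sh-NC minus that in sh-JAML was -2.47 for Plin4 (-1.95 and 0.51), -0.93 for Plin2 (-0.84 and 0.09) and -0.29 for Plin3 (-0.15 and 0.14). Of the 14187 measured genes 0.585% had a lower difference than Plin4, 5.0% than Plin2 and 23.4% than Plin3. The difference between hairpins was not tested, since each group has 1 library. In sh-NC/HG, which enters these values, the 13 mitochondrially encoded mRNAs were also lower than in sh-NC, and their part in the differences was not tested. Lipe differed the other way, by 0.64 on the log2 scale, with an interval that held 1 under the control hairpin.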

How the results depend on the processing

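Other scalings were tried (DESeq2 size factors, total counts, upper-quartile factors, or TMM without the mitochondrially encoded genes), and a prior count of 5. All 140 recomputed log2 ratios of the 7 measured genes stayed within their counting intervals. Of these, 1 changed sign (Pnpla2 in sh-JAML against sh-NC, to 0.03 with total counts). A change of scaling moves all genes of a pair by nearly the same amount, and the largest shift of a log2 ratio was 0.0561. The 140 values are thus not separate checks. The Plin4 log2 ratio for glucose under the control hairpin lay between -1.95 and -1.90. Without the minimum on the mean count, the genes at least 2-fold apart were 2 for glucose under either hairpin and 3 for the hairpin in HG, where the added genes (Plin5 and Mgll) are under the counting limit in a library. At a 1.5-fold threshold, 2 were apart for glucose under the control hairpin and 2 for the hairpin in HG, with Plin2 beside Plin4. Leaving out sh-NC/HG was chosen after seeing the data and brought the span of Plin4 to 1.43-fold and of Plin2 to 1.17-fold. No paired analysis by replicate number was possible because the groups share only 1 such number, so no replicate block could be fitted. The additive model instead matches the glucose pairs by hairpin, and no library could be left out of a pair of single libraries. Genes under 3 fragments cannot be compared at this depth.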
